A study of Citrus reticulata and Citrus x clementina and Citrus x paradisi with 16 samples.

Results

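Ovules of a polyembryonic and a monoembryonic citrus cultivar were compared at the day on which nucellar embryos begin in the former. The polyembryonic cultivar was 'Cocktail' grapefruit (GF, Citrus x paradisi) and the monoembryonic one 'Huanong red' pummelo (PU, Citrus grandis). Both were sampled 3 days after flowering, the stage the study named nucellar embryo initiation (NEI), because the first initiation cells were seen then in GF ovules. In PU the stage name marks the matching day only. The comparison rests on 4 of the 16 mRNA libraries of the series, 2 of GF (GF-NEI replicates 1 and 2) and 2 of PU (PU-NEI replicates 1 and 2), chosen by their labels and not by any measured value. According to the study, trees of both cultivars were hand-pollinated at anthesis with trifoliate orange pollen, ovaries were harvested from several trees, and the replicates came from consecutive years. Each side is 1 cultivar, so what goes with the mode of embryo formation and what goes with the cultivar cannot be told apart. Whole ovules were used, so more RNA per cell and more cells of a type cannot be told apart either.

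The nucellus is the maternal tissue that surrounds the embryo sac. In many citrus types some nucellar cells develop into embryos without fertilisation and yield seedlings that are clones of the mother, a form of apomixis called nucellar or adventitious embryony. In monoembryonic types the seed holds only the embryo that arises from the fertilised egg. Reprogramming of plant cells towards an embryo fate is generally accompanied by changes in hormone signalling, stress and redox enzymes and cell wall remodelling. Chromatin factors and transcription factors under microRNA control generally change as well. The gene lists described here were taken from the study's annotations with earlier results of these data known, and only some match those roles.

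The 4 libraries held 19.32 and 12.97 megacounts (M, counts divided by 1e+06) in GF and 19.18 and 12.48 M in PU. In each cultivar the smaller total lay far below the number of mapped reads that the study states for that library, whereas the larger one lay close to it, and the sources used here do not say why. Of 22595 assembled loci, 19943 had at least 1 count-per-million (CPM) in at least 2 of the 8 GF and PU libraries and were tested. Values are given as CPM of the counts after scaling of the libraries, in the order replicate 1, replicate 2. CPM values do not account for transcript length, so they compare libraries and not genes. Log2 fold changes are GF over PU with their standard error (SE). A locus was called at an adjusted p under 0.05 in the edgeR quasi-likelihood test together with a log2 fold change of at least 1 in either direction.

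GF and PU ovules differed at 4336 loci, 21.7% of those tested. Of these, 2384 were higher in GF (12.0% of the tested loci) and 1952 lower (9.79%). The plot of all loci by level shows called loci over the whole range of expression. The median absolute log2 fold change was 2.33 among called loci and 0.85 among all loci, and 1592 called loci differed by 3 or more on the log2 scale, 900 of them higher and 692 lower in GF. The values of the 2 GF libraries and the 2 PU libraries did not overlap at 67.7% of tested loci, which is the background for every statement on overlap made here. Pearson correlations of log2 values across loci, which are not independent replicates, were 0.946 between the GF libraries and 0.947 between the PU libraries, and 0.757 to 0.826 between cultivars. The direction of the split depended on the scaling: 55.0% of calls were higher in GF here, against 44.6% with upper-quartile factors and 40.0% with library totals alone, which shifted the median log2 fold change by -0.175 and -0.264. The number of calls depended on single libraries, with 1032, 1470, 2445 and 494 calls without GF-NEI replicate 1, GF-NEI replicate 2, PU-NEI replicate 1 and PU-NEI replicate 2. Of the 4336 calls, 439 were made without each of the 8 libraries in turn.

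**Figure D1:**
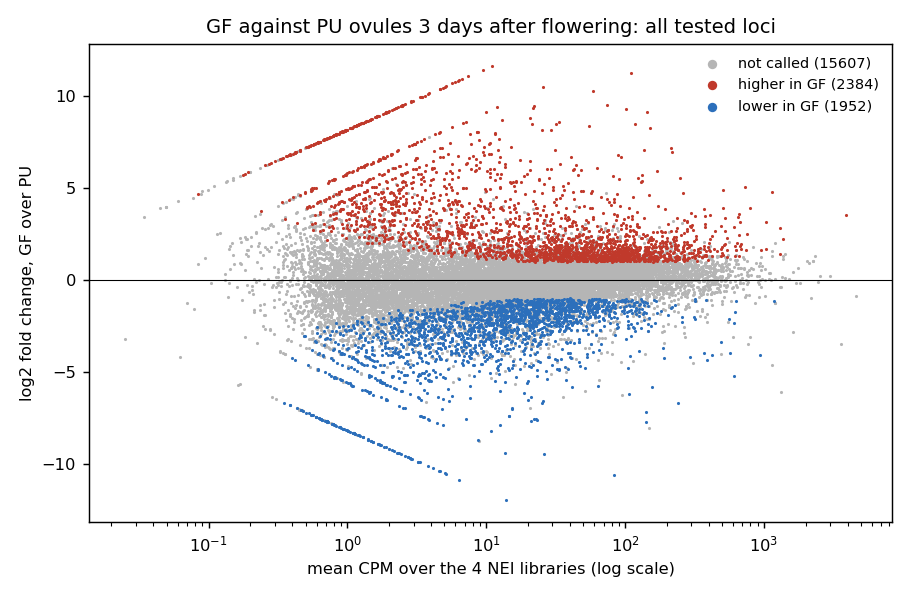
Log2 fold change (GF over PU, vertical axis) of each of the 19943 tested loci against its mean CPM over the 4 NEI libraries (horizontal log axis). Red points mark the 2384 loci higher in GF, blue points the 1952 lower ones and grey points the 15607 not called, and the straight bands at both edges are loci with no or few counts in one cultivar, whose fitted fold is not a bound.

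A set of loci was present in one cultivar and near 0 in the other. Under 3 counts in both PU libraries together with at least 1 CPM in both GF libraries were found at 300 loci, and the reverse at 223 loci. Most lay at low levels, with a median of 2.88 CPM in GF and 2.63 CPM in PU for the cultivar in which they were present. At 5 CPM or more in the other cultivar, 52 loci near 0 in PU and 29 near 0 in GF were left. Loci without a sweet orange reference gene made up 136 of the 300 (45.3%) and 114 of the 223 (51.1%), while 3568 of the 19943 tested loci had none. In contrast, loci with and without a reference gene were called about as often (21.8% and 21.4%). Without 1 library these counts ran from 342 to 526 (highest without PU-NEI replicate 1) and from 249 to 441 (highest without GF-NEI replicate 1).

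The 6 loci per direction with the largest fold, among called loci that carry exactly 1 reference gene and reach 10 CPM in both libraries of the higher cultivar, held at most 3 counts in all in the lower cultivar. Cs1g26440 (chromosome 1, 28492992 to 28494070) had 268 and 174 CPM in GF and 0.151 and 0 CPM in PU, where only 3 counts were found in both libraries together. Its ratio was 2640 (exact 95% binomial interval 902 to 12800, counting error only), with an adjusted p of 0.00234. In the other direction orange1.1t03773, on a part of the genome not placed on a chromosome, had 15.8 and 40.1 CPM in PU and no count in either GF library. It was at least 135-fold higher in PU when 3 counts per library are taken as the floor (adjusted p = 0.00579). Neither locus has a described function in the sources used here. The other 10 loci also held 0 to 2 counts in total in the lower cultivar. They kept their calls without each library in turn except 1 locus higher in GF, whose adjusted p was 0.0626 without PU-NEI replicate 2.

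Of the called loci with 1 reference gene, the 4 per direction with the highest mean CPM differed by 2.21- to 27.2-fold. Cs8g20410 (chromosome 8, 22204708 to 22209121) had 2287 and 2108 CPM in GF against 70.9 and 90.7 CPM in PU, a log2 fold change of 4.76 (SE 0.62, adjusted p = 0.00658), and kept its call without each library. Cs3g05800 (chromosome 3, 7625353 to 7626541) had 139 and 73.3 CPM in GF against 1910 and 1643 CPM in PU, a log2 fold change of -4.07 (SE 0.92, adjusted p = 0.0227). Replicates of each cultivar lay close together at both loci compared with the gap between cultivars. The call of Cs3g05800 was lost without any 1 of the 4 NEI libraries (adjusted p up to 0.116). The narrowest 4 of the 8 loci differed by 2.21- to 3.38-fold, with adjusted p-values of 0.0428 to 0.0497, and lost their calls without 6 or 7 of the 8 libraries (adjusted p up to 0.213). The sources used here describe only 1 of these 8 loci, a MADS-box protein that is given with the tissue entries.

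Cell wall and defence enzymes formed the list with the highest share of calls among the lists of more than 3 loci. It was 83.3%, against 21.7% of all loci. Of 12 loci tested, 10 were higher in GF, none was lower, and 2 were not called, and the median log2 fold change was 4.80 against 0.06 over all loci. The genes come from a list that the study drew up on these samples for differing in both of its cultivar pairs, so the count is not independent evidence of a direction. The laccase Cs6g07400, a copper oxidase that polymerises phenolics in cell walls, had 235 and 236 CPM in GF and 1.01 and 0.268 CPM in PU. The blue copper protein Cs4g18120 (chromosome 4, 17733097 to 17735131), a small extracellular electron carrier, had 1191 and 776 CPM in GF and 46.7 and 19.2 CPM in PU. Both GF libraries lay far above both PU libraries for either gene. The blue copper protein differed by 4.90 on the log2 scale (SE 0.55, adjusted p = 0.00528), which is 29.8-fold.

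An S-like ribonuclease, an RNA-degrading enzyme of the kind induced by phosphate starvation and senescence in other plants, was low in PU. Cs7g03770 (chromosome 7, 1743669 to 1745374) had 15.9 and 22.3 CPM in GF and 1.46 and 1.20 CPM in PU, a log2 fold change of 3.83 (SE 0.42, adjusted p = 0.00513). The glucan endo-1,3-beta-glucosidase Cs4g09780, which hydrolyses callose, was 8.92-fold higher in GF (adjusted p = 0.00555). Pectinesterases, which remove methyl groups from cell wall pectin, did not share a direction, and this pair was picked after its values were seen. Pectinesterase 2 orange1.1t00214 had 9.59 and 32 CPM in GF and 0.101 and 0.268 CPM in PU, a log2 fold change of 6.82 (SE 0.81, adjusted p = 0.00563). The pectinesterase 2 precursor Cs3g06900 had 9.89 and 4.98 CPM in GF and 76.1 and 116 CPM in PU. That second gene was higher in both PU libraries but did not pass the test (log2 fold change -3.69, SE 1.59, adjusted p = 0.127). Of the 10 calls in the list, 7 remained without GF-NEI replicate 1 or without GF-NEI replicate 2, 9 without PU-NEI replicate 1 and 5 without PU-NEI replicate 2. Those 5 were the laccase, the blue copper protein, the ribonuclease, the glucosidase and pectinesterase 2.

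**Figure D2:**
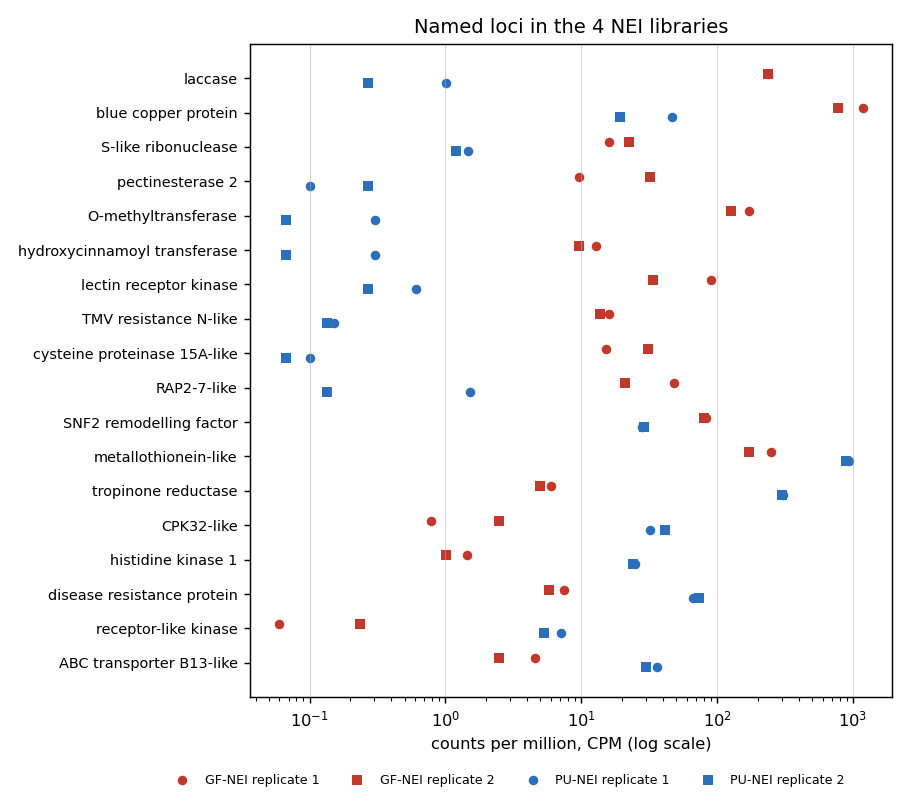
CPM (horizontal log axis) of 18 loci in the 4 NEI libraries, with GF in red, PU in blue, circles for replicate 1 and squares for replicate 2. The upper 11 loci, from the laccase to the SNF2 remodelling factor, were higher in GF, and the lower 7, from the metallothionein to the ABC transporter, were lower.

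The 3 loci listed as predicted targets of the microRNA miR397, which represses laccases in plants, lay close together on chromosome 6 and were higher in GF. Next to the laccase named above, Cs6g07410 (9240619 to 9243745), annotated only as a hypothetical protein, had 2.10 and 7.62 CPM in GF and no count in PU, at least 27.6-fold higher. Cs6g07450 (9282629 to 9285385), a second laccase-7-like gene, had 3.42 and 2.02 CPM in GF and 0.603 and 0.736 CPM in PU, a log2 fold change of 2.02 (SE 0.58, adjusted p = 0.0439). All 3 loci were called, against 21.7% of all loci, but neighbouring loci can share reads, so the 3 are not separate evidence. The laccase Cs6g07400 is also on the study's list of differing genes, so its call is not independent evidence. The median log2 fold change of the list was 8.46, or 4.79 with Cs6g07410 set to its bound. Without PU-NEI replicate 2 only the call of Cs6g07400 remained, and 2 of the 3 remained without each of the other NEI libraries. Cs6g07450 also lost its call with library totals alone or upper-quartile factors (adjusted p up to 0.0704 under other settings), and without any 1 of 3 libraries of the earlier stage (adjusted p up to 0.194 over libraries left out).

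Redox enzymes were split. Of 10 loci tested, 3 were higher in GF, 2 were lower and 5 were not called, with a median log2 fold change of 0.64. Among all loci 21.7% were called. Of the 7 loci from the study's list of differing genes 4 were called, so these are not independent evidence. Of the 3 predicted microRNA targets 1, thioredoxin M3, was called. The metallothionein-like gene Cs1g07330 (chromosome 1, 7537906 to 7539757), which codes for a small cysteine-rich metal-binding protein, had 249 and 172.4 CPM in GF and 940 and 894 CPM in PU. Its log2 fold change was -2.12 (SE 0.37, adjusted p = 0.0115). Thioredoxin M3 (Cs8g06060), a thiol reductant of plastids, had 8.21 and 5.75 CPM in GF and 35.4 and 50.9 CPM in PU (log2 fold change -2.62, SE 0.60, adjusted p = 0.0228). Neither gene overlapped between cultivars, and both were lower in GF.

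Higher in GF was a phospholipid hydroperoxide glutathione peroxidase, Cs1g10745, an enzyme that reduces lipid peroxides, with a ratio of 68.0 (interval 22.9 to 333) over 3 counts in PU. The locus that carries class III peroxidases orange1.1t02037 to orange1.1t02044 was 4.63-fold higher (adjusted p = 0.0182) and the alkenal double bond reductase locus of Cs5g21010 was 3.25-fold higher (adjusted p = 0.0185). Both loci join several reference genes, so the value may not be that of each gene. The peroxidase call was lost when the counts of all transcripts were summed (adjusted p = 0.124). Other class III peroxidase loci were not called and did not share a direction. Those of orange1.1t02036 and orange1.1t04469 had log2 fold changes of 2.55 and 2.16 (adjusted p = 0.063 and 0.0695). That of orange1.1t02045, next to the called locus, had a log2 fold change of -1.93 (adjusted p = 0.0941). Copper/zinc superoxide dismutase was at 442 and 347 CPM in GF and 536 and 517 CPM in PU (log2 fold change -0.42, adjusted p = 0.343). Of the 5 calls, 2 remained without either GF library, 4 without PU-NEI replicate 1 and none without PU-NEI replicate 2 (adjusted p up to 0.114 over libraries left out).

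Enzymes of aromatic and phenolic metabolism held some of the widest gaps in both directions. Of 13 loci tested, 3 were higher in GF, 2 were lower and 8 were not called, with a median log2 fold change of 1.14. The share called was 38.5% against 21.7% of all loci. The study's own list supplied 11 of the 16 genes, so again the count is not independent evidence. All 5 calls were among the 8 loci from that list, and none of the 5 predicted microRNA targets was called. The O-methyltransferase locus on chromosome 5 (18137445 to 18356803), whose products methylate hydroxyl groups of small phenolics, had 171 and 126 CPM in GF and 0.302 and 0.0669 CPM in PU. It differed by 9.51 on the log2 scale (SE 0.79, adjusted p = 0.00257) and carries 2 reference genes, Cs5g18010 and Cs5g18040, which the counts do not separate. Tropinone reductase, a short-chain dehydrogenase named for tropane alkaloid synthesis in nightshades, gave the mirror image. Its locus on chromosome 8 (21473214 to 21497580, Cs8g19070 and Cs8g19105) had 6 and 4.98 CPM in GF and 307 and 302 CPM in PU. The log2 fold change was -5.79 (SE 0.33, adjusted p = 0.00167), and replicates of each cultivar were nearly equal.

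Hydroxycinnamoyl transferase (Cs1g11780), an acyltransferase of the route to lignin, was 56.0-fold higher in GF, with 12.9 and 9.56 CPM against 0.302 and 0.0669 CPM (adjusted p = 0.00865). An isoflavone 2'-hydroxylase-like cytochrome P450 locus, named for a legume enzyme, was 7.16-fold higher (adjusted p = 0.0102). The alpha subunit of anthranilate synthase (Cs2g12755), which starts tryptophan synthesis, was lower in GF at low levels, with 0.240 and 0.0778 CPM against 0.905 and 4.22 CPM (adjusted p = 0.0365). A phenylalanine ammonia-lyase-like gene (Cs6g11940), the entry enzyme of phenylpropanoid synthesis, had 187 and 61.0 CPM in GF and 827 and 1329 CPM in PU. Although the groups did not overlap, that difference did not pass the test (log2 fold change -3.12, SE 1.44, adjusted p = 0.148). The calls of the O-methyltransferase and tropinone reductase loci were made without each library in turn. Without PU-NEI replicate 2 they were the only 2 of the 5 that remained, and 4 remained without either GF library. The anthranilate synthase call was also lost without either GF library of the earlier stage, which enters the spread only (adjusted p up to 0.167).

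Receptor-like kinases, which carry signals from the cell surface, were called at 6 of 10 tested loci (60.0%, against 21.7% of all loci), 4 higher and 2 lower in GF, with a median log2 fold change of 0.45. Of these loci Cs8g12370 and Cs6g20330 come from the study's list of differing genes, and 4 of the other 8 were called. The L-type lectin receptor kinase Cs8g12370 (chromosome 8, 14247140 to 14249632) had 89.5 and 33.8 CPM in GF and 0.603 and 0.268 CPM in PU, a log2 fold change of 7.09 (SE 0.68, adjusted p = 0.00375). Another receptor-like kinase, Cs6g02260, had 84.8 and 93.8 CPM in GF and 3.17 and 0.201 CPM in PU (log2 fold change 5.68, SE 0.94, adjusted p = 0.0104). BRI1-associated receptor kinase 1 (Cs6g20330), a co-receptor of brassinosteroid and immune receptors, had 4.50 and 9.02 CPM in GF and no count in PU. These 3 kinases were present in GF and at or near the floor in at least 1 PU library, and BRI1-associated receptor kinase 1 was at least 38.4-fold higher in GF.

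The reverse held for Cs2g12140 (chromosome 2, 9119500 to 9122207), a receptor-like kinase with 0.0600 and 0.233 CPM in GF and 7.04 and 5.36 CPM in PU. Its log2 fold change was -5.41 (SE 0.70, adjusted p = 0.00658). Likewise orange1.1t03893 had 0.0600 and 0.156 CPM in GF and 3.87 and 10.1 CPM in PU, a ratio of 64.5 in favour of PU (interval 21.8 to 315). Of the 6 calls, those of Cs8g12370, Cs6g02260 and Cs2g12140 were made without each library in turn. The count was 3 without GF-NEI replicate 1 or PU-NEI replicate 2 and 4 without either other NEI library. The call of Cs3g24860, 2.45-fold higher in GF, was also lost with library totals alone and with upper-quartile factors (adjusted p up to 0.0596 under other settings).

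Disease resistance proteins, intracellular immune receptors of which many are targets of microRNAs in plants, were called in both directions. Of 60 genes on this list, 42 matched 36 loci, 35 of which were tested. Of the 35, 6 were higher in GF, 5 were lower and 24 were not called, with a median log2 fold change of -0.20. The share called was 31.4% against 21.7% of all loci. The genes come from the study's table of predicted microRNA targets. A locus similar to the tobacco mosaic virus resistance gene N (Cs5g19440 and Cs5g19450, chromosome 5, 20187261 to 20233826) had 15.9 and 13.8 CPM in GF and 0.151 and 0.134 CPM in PU. It differed by 6.63 on the log2 scale (SE 0.57, adjusted p = 0.00292). The locus of its N-like neighbour Cs5g19460 (20220987 to 20224435), 7.28-fold higher in GF, lies within the same interval, so the 2 may share reads.

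Lower in GF was Cs1g09350 (chromosome 1, 10698054 to 10704665), with 7.50 and 5.75 CPM in GF and 66.7 and 74.0 CPM in PU (log2 fold change -3.41, SE 0.50, adjusted p = 0.00865). Cs1g13270 on the same chromosome had 0.360 and 0.233 CPM in GF and 5.68 and 4.28 CPM in PU (log2 fold change -4.02, SE 0.52, adjusted p = 0.00647). Both PU libraries were far above both GF libraries for these 2 genes. The other called loci named by the same rule were Cs7g04730 (5.12-fold), orange1.1t05252 (12.4-fold) and Cs5g20360 (12.9-fold) on the higher side. On the lower side they were orange1.1t01356 (5.42-fold) and orange1.1t04517 (4.75-fold). Of the 11 calls, 4 were made without each library in turn, namely Cs5g19440, Cs7g04730, Cs1g13270 and Cs1g09350. The count was 4 without GF-NEI replicate 1, PU-NEI replicate 1 or PU-NEI replicate 2 and 6 without GF-NEI replicate 2.

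**Figure D3:**
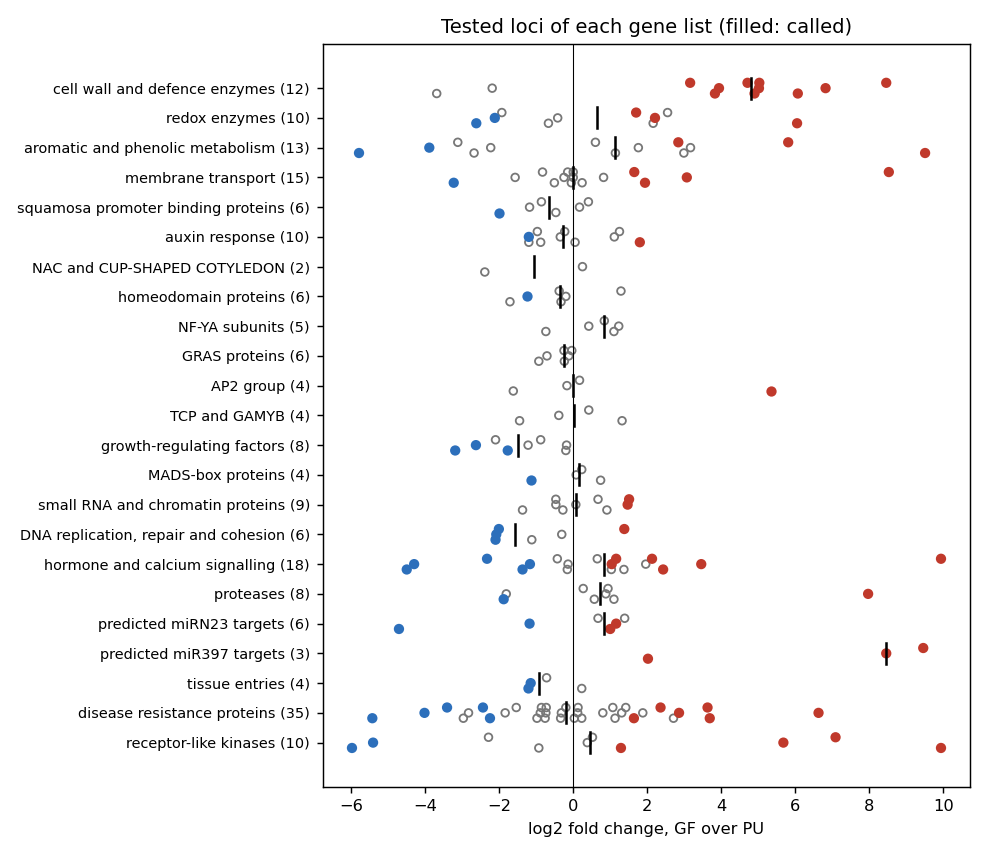
Log2 fold change (GF over PU, horizontal axis) of the tested loci of each gene list, with the number tested in brackets. Filled points are called loci (red higher and blue lower in GF), open points are not called and black bars are list medians, which run from -1.56 for DNA replication, repair and cohesion to 8.46 for the predicted miR397 targets. Loci without a count in PU are drawn at their fitted value.

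Hormone and calcium signalling genes were called at 11 of 18 loci (61.1%, against 21.7% of all loci), 6 higher and 5 lower in GF, with a median log2 fold change of 0.84. All 7 loci taken from the study's list of differing genes were called, so they are not independent evidence, and 4 of the 11 taken from its predicted microRNA targets. Calcium-dependent protein kinase 32-like (Cs9g06220, chromosome 9, 3773646 to 3776615), a kinase switched on by calcium, had 0.780 and 2.49 CPM in GF and 31.8 and 41.6 CPM in PU. Histidine kinase 1 (Cs1g25650), a membrane sensor known for osmosensing in Arabidopsis, had 1.44 and 1.01 CPM in GF and 24.8 and 23.9 CPM in PU. For both kinases each PU library lay far above each GF library, with log2 fold changes of -4.50 (SE 0.61, adjusted p = 0.00711) and -4.30 (SE 0.74, adjusted p = 0.0112). MOTHER OF FT AND TFL1-like (orange1.1t00546), known for seed dormancy and germination in Arabidopsis, was 5.02-fold lower in GF (adjusted p = 0.0289). A lipoxygenase, Cs7g10360, was 2.58-fold lower (adjusted p = 0.0359).

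On the higher side, in addition to BRI1-associated receptor kinase 1, were a TGA factor, a WRKY 2-like gene and a MAP kinase kinase kinase 1-like gene. The TGA factor (Cs8g15030), a bZIP protein of salicylate signalling, had 24.6 and 41.5 CPM in GF and 6.64 and 8.50 CPM in PU (log2 fold change 2.13, SE 0.57, adjusted p = 0.0373). The WRKY 2-like gene (Cs4g07560) was 2.23-fold higher (adjusted p = 0.0236) and the kinase (Cs3g19030) 2.06-fold higher (adjusted p = 0.0228). All 3 lost their calls with library totals alone, where the adjusted p or the fold no longer passed. With that scaling 3 loci of the list were higher and 5 lower in GF, and with upper-quartile factors 2 and 5. Only the calcium-dependent kinase kept its call without each library, and 1 call remained without GF-NEI replicate 1, GF-NEI replicate 2 or PU-NEI replicate 2, and 6 without PU-NEI replicate 1. Without either GF library of the earlier stage 7 of the 11 remained.

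Auxin response factors bind the promoters of auxin-regulated genes, and several are repressed by microRNAs. Of 10 loci of the auxin response, 1 was higher, 1 was lower and 8 were not called, a share of 20% called that is near the 21.7% of all loci, and the median log2 fold change was -0.29. Auxin response factor 17-like (Cs3g18940, chromosome 3, 22320454 to 22325236) had 48.2 and 39.5 CPM in GF and 100 and 101 CPM in PU, a log2 fold change of -1.20 (SE 0.22, adjusted p = 0.0126). Auxin response factor 10 (Cs8g16440), of the same microRNA-controlled class in Arabidopsis, had 43.2 and 48.5 CPM in GF and 100 and 111 CPM in PU. The values of the second gene were as far apart as those of the first, but its adjusted p was 0.0518. It passed with 9 of the 11 other scalings, filters, tests and fits. Auxin response factor 19 had 32.1 and 35.6 CPM in GF and 69.7 and 54.8 CPM in PU, with an adjusted p of 0.0429 but a log2 fold change of only -0.88. Auxin response factor 18-like (Cs6g11800) went the other way, with 19.19 and 12.75 CPM in GF and 6.79 and 6.63 CPM in PU. It narrowly missed the test as well (log2 fold change 1.25, SE 0.38, adjusted p = 0.051). Of the 10 loci, 4 had log2 fold changes above 0 and 6 below.

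The auxin-induced protein PCNT115 (Cs3g10570), an aldo-keto reductase, had 31.7 and 32 CPM in GF and 8.70 and 9.51 CPM in PU (log2 fold change 1.80, SE 0.28, adjusted p = 0.00916). Replicates of each cultivar were again nearly equal. PCNT115 is the only locus here from the study's list of differing genes, so its call is not independent evidence. Of the 9 predicted microRNA targets 1 was called. The auxin signalling F-box 2-like receptor had 117 and 158 CPM in GF and 62.6 and 64.7 CPM in PU (adjusted p = 0.0749). Neither call of this list remained without PU-NEI replicate 2 (adjusted p = 0.0568 for PCNT115 and 0.0689 for auxin response factor 17-like), and 1 remained without either GF library. With library totals alone or upper-quartile factors 4 loci were lower and 1 was higher in GF.

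Growth-regulating factors sustain cell proliferation in young plant organs and are held down by the microRNA miR396. The log2 fold changes of all 8 tested members were below 0, under each scaling tried as well, with a median of -1.50, although that of the 2-like gene was above 0 without GF-NEI replicate 2. Of the 8, 3 passed the test and were lower in GF, none was higher and 5 were not called. Growth-regulating factor 5 (orange1.1t00172) had 3.84 and 3.65 CPM in GF and 28.1 and 40.6 CPM in PU, a log2 fold change of -3.19 (SE 0.84, adjusted p = 0.0345). Growth-regulating factor 4-like (Cs7g15220, chromosome 7, 10878541 to 10892624) had 16.9 and 3.81 CPM in GF and 61.2 and 67.6 CPM in PU (log2 fold change -2.63, SE 0.69, adjusted p = 0.0347). Growth-regulating factor 8-like (Cs5g01380, chromosome 5, 335766 to 339661) had 51.3 and 25.8 CPM in GF and 121 and 142 CPM in PU (log2 fold change -1.77, SE 0.37, adjusted p = 0.0188). None of these 3 overlapped between cultivars, but GF replicates of the 4-like gene were themselves far apart.

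The share called was 37.5% against 21.7% of all loci, and the genes come from the study's table of predicted microRNA targets. Growth-regulating factor 3 (28.3 and 16.6 CPM in GF, 46.1 and 58.7 CPM in PU) and Cs1g17560 (7.91 and 4.98 CPM in GF, 23.7 and 31.7 CPM in PU) had adjusted p-values of 0.0843 and 0.103. The second 4-like gene, orange1.1t03122, differed little, with 23.6 and 20.7 CPM against 25.3 and 25.5 CPM. Only the 2-like gene orange1.1t02555 overlapped between the cultivars, whereas 7 of the 8 did not, beside 67.7% of all loci without overlap. The log2 fold change of that 2-like gene, -0.18, became 0.41 without GF-NEI replicate 2. Of the 3 calls, 2 remained without GF-NEI replicate 1, 1 without PU-NEI replicate 1 and none without GF-NEI replicate 2 or PU-NEI replicate 2, where adjusted p-values reached 0.139. With DESeq2, 5 of the 8 were called lower.

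**Figure D4:**
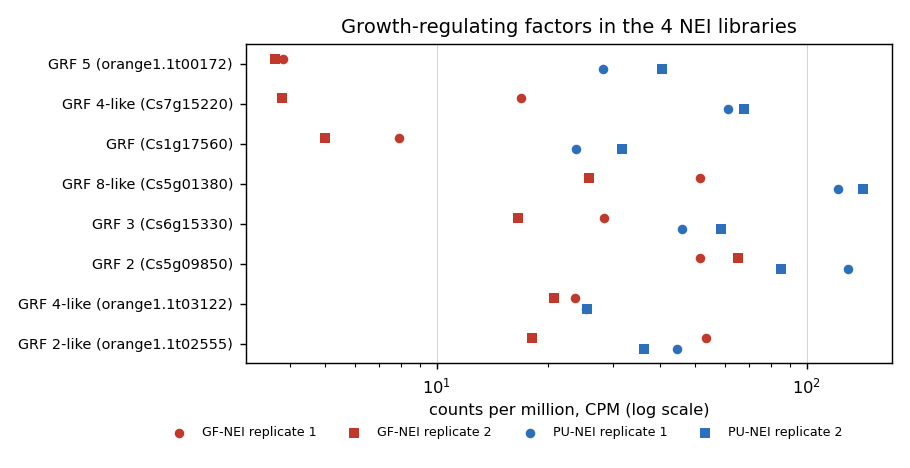
CPM (horizontal log axis) of the 8 growth-regulating factors (GRF) in the 4 NEI libraries, with GF in red, PU in blue, circles for replicate 1 and squares for replicate 2, ordered by log2 fold change from the most negative at the top. The PU libraries lie to the right of both GF libraries for all but the 2-like gene at the bottom, and GRF 5, Cs7g15220 and GRF 8-like passed the test.

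Among other transcription factor families under microRNA control, the squamosa, homeodomain and AP2 groups had 16.7%, 16.7% and 25.0% of their loci called, near the 21.7% of all loci. Squamosa promoter binding proteins, the miR156 targets that time phase change, had 1 lower locus of 6, with a median log2 fold change of -0.66. It was the 16-like locus of Cs7g10990 and Cs7g11000, with 12.1 and 6.30 CPM in GF and 36.2 and 37.2 CPM in PU (log2 fold change -2.00, SE 0.59, adjusted p = 0.0471). Homeodomain proteins, which include leucine zipper factors of polarity and meristems, had 1 lower locus of 6 and a median of -0.36. Cs1g15640 had 29.4 and 26.3 CPM in GF and 58.0 and 73.6 CPM in PU (log2 fold change -1.24, SE 0.25, adjusted p = 0.0160). In both loci the PU libraries were about equally high.

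The ATHB-14-like gene of the same homeodomain group had 26.5 and 47.5 CPM in GF and 107 and 135 CPM in PU without passing the test (adjusted p = 0.0710). The ATHB-8 gene (Cs4g19310) went the other way, with 39.4 and 25.9 CPM in GF and 15.3 and 11.4 CPM in PU. It did not pass the test either (log2 fold change 1.29, SE 0.53, adjusted p = 0.111). Of the 6 homeodomain loci, 5 had log2 fold changes below 0. In the AP2 group, whose miR172-controlled members delay flowering in Arabidopsis, 1 of 4 loci was higher in GF. RAP2-7-like Cs7g27790 (chromosome 7, 28475871 to 28479089) had 48.1 and 21.1 CPM in GF and 1.51 and 0.134 CPM in PU, a log2 fold change of 5.34 (SE 1.04, adjusted p = 0.0152). Its paralogue Cs8g17390 had 157 and 195 CPM in GF and 184 and 128 CPM in PU, so the groups overlapped (adjusted p = 0.713).

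No member of the remaining families was called. NF-YA subunits, which bind CCAAT boxes, had a median log2 fold change of 0.84 over 5 loci, and their largest estimates were 1.23 (Cs9g12370, adjusted p = 0.189) and 1.1 (Cs2g30350, adjusted p = 0.0611). With DESeq2 or the edgeR exact test 1 of the 5 was called higher. GRAS proteins had a median of -0.25 over 6 loci of 7 found, with -0.93 for SCARECROW-like 27-like (adjusted p = 0.0822) and -0.71 for SCARECROW-like 15-like Cs1g23790 (adjusted p = 0.629). TCP and GAMYB genes had a median of 0.02 over 4 loci. TCP4-like Cs7g25460 had 2.82 and 3.42 CPM in GF against 6.34 and 10.8 CPM in PU (adjusted p = 0.0542) and TCP2 had 118 and 257 CPM against 89.1 and 60.8 CPM (adjusted p = 0.0737). With both other tools these were called, the first lower and the second higher.

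CUP-SHAPED COTYLEDON 2 (Cs1g08000), a NAC protein that sets organ boundaries in embryos, had 0.899 and 0.233 CPM in GF and 1.86 and 4.28 CPM in PU, with an adjusted p of 0.172. The NAC domain gene Cs5g10870 had 21.2 and 16.2 CPM against 11.6 and 19.8 CPM, which overlapped. The 3 transcription factor calls of the squamosa, homeodomain and AP2 groups were all lost without PU-NEI replicate 2 and without GF-NEI replicate 1 (adjusted p up to 0.193). Without GF-NEI replicate 2 the squamosa and homeodomain calls were lost, and without PU-NEI replicate 1 the squamosa call.

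Genes of small RNA pathways and chromatin were called at 22.2% of loci, near the 21.7% of all loci. Of 9 loci, 2 were higher in GF, none was lower and 7 were not called, with a median log2 fold change of 0.07. An SNF2 chromatin-remodelling locus on chromosome 9 (3920731 to 3935150), an ATP-driven nucleosome mover, had 83.4 and 79.5 CPM in GF and 28.2 and 29.1 CPM in PU. The log2 fold change was 1.51 (SE 0.21, adjusted p = 0.00734), with replicates nearly equal, over 3 joined reference genes from Cs9g06423 to Cs9g06430. The lysine demethylase JMJ14 (Cs8g12620), which removes methyl groups from histone H3 in Arabidopsis, had 125 and 216 CPM in GF and 54.0 and 68.9 CPM in PU (log2 fold change 1.47, SE 0.43, adjusted p = 0.0475).

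DICER-LIKE 1, the main microRNA-processing enzyme, had 85.3 and 92.7 CPM in GF and 98.8 and 117 CPM in PU (adjusted p = 0.555). The DNA methyltransferase 1-like gene had 17.2 and 20.8 CPM against 23.0 and 29.7 CPM (adjusted p = 0.252), and the DEMETER/ROS1 DNA glycosylase 59.8 and 54.5 CPM against 83.3 and 75.0 CPM (adjusted p = 0.256). These enzymes of cytosine methylation and its removal were thus within a log2 difference of 0.47 and not called. JMJ14 lost its call with all 3 other scalings (adjusted p up to 0.0970 under other settings). Without PU-NEI replicate 2 neither call remained (adjusted p = 0.0508 for the SNF2 locus), and 1 remained without each other NEI library or either GF library of the earlier stage.

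DNA replication, repair and cohesion genes were called at 4 of 6 loci (66.7%, against 21.7% of all loci), 3 lower and 1 higher in GF, with a median log2 fold change of -1.56. Of these loci 2 come from the study's list of differing genes, of which 1, the polymerase subunit, was called. TONSOKU-like (Cs1g05390), a guardian of replication forks, had 3.30 and 2.18 CPM in GF and 9.96 and 13.4 CPM in PU (log2 fold change -2.08, SE 0.44, adjusted p = 0.0189). Poly(ADP-ribose) polymerase 2 (Cs5g33270), which marks DNA breaks, had 3.18 and 6.30 CPM in GF and 16.2 and 21.8 CPM in PU (log2 fold change -2.01, SE 0.43, adjusted p = 0.0194). DNA polymerase epsilon subunit 2-like (Cs5g16430), part of the leading-strand polymerase, had 2.22 and 4.51 CPM in GF and 11.8 and 17.1 CPM in PU (log2 fold change -2.10, SE 0.60, adjusted p = 0.0436). In all 3 both PU libraries exceeded both GF libraries.

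A cohesin subunit (Cs5g32260), part of the ring that holds sister chromatids together, went the other way, with 144 and 206 CPM in GF and 68.6 and 65.4 CPM in PU (log2 fold change 1.38, SE 0.31, adjusted p = 0.0219). The 4 calls were made under each other scaling. None remained without GF-NEI replicate 1 or PU-NEI replicate 2, 1 remained without GF-NEI replicate 2 and 2 without PU-NEI replicate 1 (adjusted p up to 0.177 where a call was lost). The polymerase call was also lost without either GF library of the earlier stage.

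Among proteases, 1 of 8 loci was higher and 1 lower in GF, with a median log2 fold change of 0.73. The share called was 25.0%, near the 21.7% of all loci. The higher locus is the only one from the study's list of differing genes, and 1 of the 7 predicted microRNA targets was called. Cysteine proteinase 15A-like (Cs7g24410, chromosome 7, 24166857 to 24169802) had 15.3 and 31.2 CPM in GF and 3 counts in all in PU, a ratio of 258 (interval 87.8 to 1250) with an adjusted p of 0.00513. That call was made without each library in turn. A vacuolar-processing enzyme (Cs1g10260), a cysteine protease that matures vacuolar proteins, had 10.7 and 18.6 CPM in GF and 36.6 and 71.4 CPM in PU (log2 fold change -1.88, SE 0.43, adjusted p = 0.0233). A second one, Cs4g18790, had 222 and 179 CPM in GF and 145 and 73.4 CPM in PU (adjusted p = 0.0973). The call of Cs1g10260 was lost without either GF library or without PU-NEI replicate 2 (adjusted p up to 0.118).

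Membrane transporters had 4 loci higher and 1 lower in GF out of 15 (33.3% called, against 21.7% of all loci). Their median log2 fold change was 0.00. Of the 5 loci from the study's list of differing genes 4 were called, so these are not independent evidence. Of the 10 predicted microRNA targets 1, the SPX domain transporter, was called. The ABC transporter B family member 13-like gene (Cs3g26380, chromosome 3, 27705800 to 27711494), of a family that includes auxin exporters in Arabidopsis, had 4.56 and 2.49 CPM in GF and 36.4 and 30.0 CPM in PU. Its log2 fold change was -3.23 (SE 0.52, adjusted p = 0.00988). A Na+/H+ antiporter (orange1.1t01073), which exchanges sodium for protons, had 14.6 and 27.6 CPM in GF and 2.26 and 2.74 CPM in PU (log2 fold change 3.07, SE 0.51, adjusted p = 0.0103). The groups did not overlap for either transporter.

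Amino acid permease 6 (Cs3g16570) was 3.83-fold higher in GF (adjusted p = 0.0379) and an SPX domain transporter (Cs5g10180), of a family tied to phosphate sensing, 3.13-fold (adjusted p = 0.0481). The aquaporin Cs9g14770, a water channel, had 3.90 and 1.17 CPM in GF and no count in PU, at least 14.4-fold higher. The SPX domain call was lost without either GF library of the earlier stage (adjusted p up to 0.208 over libraries left out), and with library totals alone or upper-quartile factors (adjusted p up to 0.0639 under other settings). No call of this list remained without PU-NEI replicate 2, 2 remained without GF-NEI replicate 1, 1 without GF-NEI replicate 2 and 3 without PU-NEI replicate 1.

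Predicted targets of miRN23, a microRNA that the study identified in citrus ovules, were called at 4 of 6 loci (66.7%, against 21.7% of all loci), 2 in each direction. The list joins the predicted targets of both mature strands of miRN23. Cs8g13560 (chromosome 8, 16334959 to 16335974) had 1.74 and 1.32 CPM in GF and 48.7 and 32 CPM in PU (log2 fold change -4.71, SE 0.55, adjusted p = 0.00555). It lies inside a longer locus, which was 2.27-fold lower in GF (adjusted p = 0.0438), so the 2 may share reads. The longer locus joins 7 reference genes from Cs8g13420 to Cs8g13580. Only Cs8g13550 among them is the predicted target, so the value may not be that of the target. The position that the study gives for the miRN23 precursor also lies within the longer locus. Digalactosyldiacylglycerol synthase 2 (orange1.1t00318), which makes a chloroplast lipid, was 2.23-fold higher and the SEC23-interacting protein gene (Cs7g08020) 2.00-fold higher. Neither of the last 2 was called with library totals alone or upper-quartile factors, where the fold fell under the threshold or the adjusted p no longer passed (adjusted p up to 0.0921 under other settings). The XS domain gene Cs9g06920, named here after its values were seen, had 25.8 and 38.7 CPM in GF and 9.45 and 15.2 CPM in PU. Its groups did not overlap, and its adjusted p was 0.0804 here, 0.0412 with DESeq2 and 0.0474 with the edgeR exact test. In the study's assay in tobacco leaves, miRN23 repressed a reporter with the Cs9g06920 site but not with that of orange1.1t00318. Without GF-NEI replicate 1 or PU-NEI replicate 2 only Cs8g13560 remained called, and 2 remained without each other NEI library. The call of the longer locus that joins 7 genes was lost as well without any 1 of 3 libraries of the earlier stage (adjusted p up to 0.156 over libraries left out).

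Few entries in the sources used here mark a tissue, so the label ovule could be checked only in part. The MADS-box gene named after cotton GHMADS-2 (Cs5g17820), of the family of floral organ regulators, was abundant in every library, with 378 and 405 CPM in GF and 856 and 880 CPM in PU. It was lower in GF (log2 fold change -1.15, SE 0.33, adjusted p = 0.0456). The rubisco small subunit (Cs6g18680), which marks green tissue, had 53.2 and 38.6 CPM in GF and 111 and 103 CPM in PU (log2 fold change -1.21, SE 0.27, adjusted p = 0.0222). A B-class MADS-box gene, the class that specifies petals and stamens, stayed at 2.57 to 5.34 CPM in all 4 libraries and overlapped between cultivars (adjusted p = 0.851). A pollen-specific C13-like protein had 231 and 85.0 CPM in GF and 308 and 213.8 CPM in PU, which also overlapped (adjusted p = 0.379). The part of green tissue in the other differences was not tested. The 2 called genes, Cs5g17820 and Cs6g18680, come from the study's list of differing genes, so their calls are not independent evidence. Neither of the 2 predicted microRNA targets was called. Neither of the 2 calls remained without any 1 of the 4 NEI libraries, nor that of Cs5g17820 without either GF library of the earlier stage (adjusted p up to 0.158).

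Called loci were spread over all 9 chromosomes of the sweet orange genome and its unplaced part, from 19.9% of tested loci on chromosome 7 to 24.4% on the unplaced part. The balance of directions differed along the genome, as the plot of called loci by chromosome shows. On chromosome 7, 309 loci were higher and 155 lower in GF, so that 66.6% of its calls were higher, and on chromosome 6 the numbers were 208 and 112 (65.0%). On chromosome 3 they were 226 and 236 (48.9%). The level of these shares moved with the scaling, to 51.9%, 49.8% and 34.2% of calls on chromosomes 7, 6 and 3 with library totals alone, but chromosomes 6 and 7 had the 2 highest shares under each of the 3 other scalings as well. Loci near 0 in one cultivar were most uneven on chromosome 6, where 28 were near 0 in PU and 6 near 0 in GF. Chromosome 7 had 37 and 18, and chromosomes 2 (31 and 18) and 4 (19 and 10) leaned the same way. So did the totals of 300 and 223, whereas chromosome 3 had 21 and 25. On chromosome 8 there were 22 of each. These counts are a description without a test, since neighbouring loci are not independent.

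**Figure D5:**
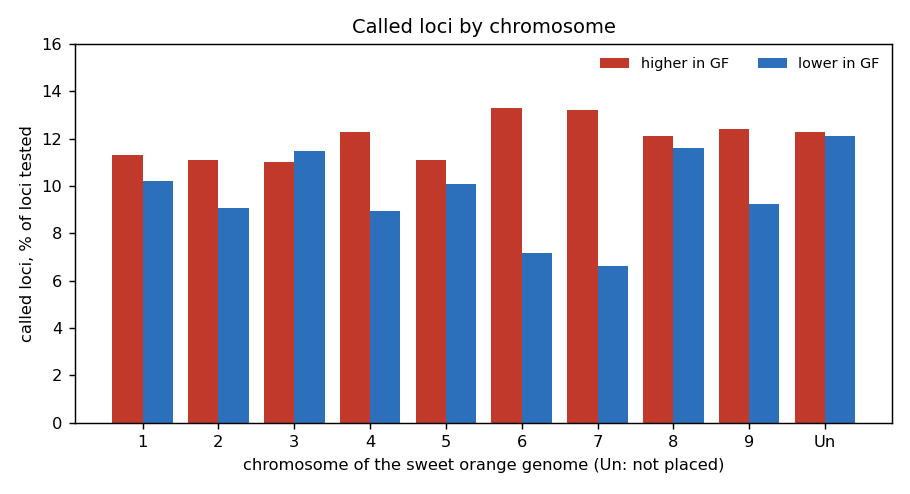
Called loci as a percentage of the loci tested on each sweet orange chromosome (Un, not placed), with red bars for loci higher and blue bars for loci lower in GF. On chromosomes 6 and 7 the red bars stand at 13.3% and 13.2% and the blue bars at 7.16% and 6.64%, whereas on chromosomes 3, 8 and the unplaced part both bars lie between 11.0% and 12.3%.

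On chromosome 1 loci of opposite direction lay next to each other, a pair picked after its values were seen. The glutathione peroxidase gene Cs1g10745 (13012792 to 13015484) had 4.14 and 8.09 CPM in GF and 0.101 and 0.0669 CPM in PU. Cs1g10770, which begins at 13027636 and ends at 13043531, had 0.120 and 0 CPM in GF and 18.2 and 25.2 CPM in PU. So each gene was near 0 in the cultivar in which the other was present. The ratio of Cs1g10770 was 313 in favour of PU (interval 86.3 to 2590), and its call was made without each library in turn. The call of Cs1g10745 was lost without PU-NEI replicate 2 (adjusted p = 0.0586).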

How the data were processed

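The authors aligned ovule mRNA reads to the sweet orange genome with TopHat and Bowtie, allowing 2 mismatches, and assembled transcripts with Cufflinks. Versions, counter, strand setting and build are not given in the sources used here, and reads lost to sequence differences from sweet orange were not measured. The authors deposited whole numbers per transcript and library without a unit in the header, and these were read as counts of aligned reads that the authors had not normalised. The deposited FPKM values, which the authors gave per cultivar and stage with replicates pooled, and the mandarin libraries were not used. The median isoform held 0.807 times as many counts as the top isoform at that locus, so reads appear to be counted again for each isoform. A locus was therefore given the count of its transcript with the largest total.

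All 8 GF and PU libraries were fitted as 4 groups with edgeR 4.0.16 (R 4.3.3), TMM scaling and the quasi-likelihood test, adjusted by Benjamini-Hochberg over 19943 loci. The 4 libraries of the earlier stage served for the spread only, and 4 residual degrees of freedom remained. A count of 0 allowed up to 3 counts, or 0.151 to 0.233 CPM. Gene functions are those of the study's supplementary annotation. The members and lists were chosen with earlier results of these data known. Loci named by rule were the called members of each list by adjusted p, up to 4 in each direction. Where none was called, the 2 largest estimates were named. So were the 6 called loci per direction with the largest fold at 10 CPM or more, and the 4 with the highest mean CPM. Of the latter loci, at most 2 per direction without a described function are named. Other list members were named outside this rule with their values known, among them each uncalled member named from a list with a call. Alternatives were other scalings (DESeq2 1.42.0 size factors, upper quartile, library totals), filters, sums over transcripts, DESeq2 and edgeR exact tests, the 4 NEI libraries alone, a replicate block, and leaving out each library.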

Additional observations from a re-analysis of the deposited data

How the results depend on the processing

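The number of called loci stayed within 1.5 times of 4336 under each other scaling, filter, test and fit, at 3277 (5 CPM filter) to 5932 (replicate block). It ranged from 494 to 4549 when each library was left out in turn. The 1 alternative for this number chosen after seeing the data, loci with a reference gene only, left 3571. The share of calls higher in GF, 55.0%, was 53.4% with DESeq2 size factors, 44.6% with upper-quartile factors, 40.0% with library totals only, 49.9% without a filter, 51.5% with the 5 CPM filter, 52.3% for sums over transcripts, 50.4% with the DESeq2 test, 52.4% with the edgeR exact test, 43.2% with only the 4 NEI libraries and 56.6% by adjusted p alone. It ranged from 47.7% to 70.7% when each library was left out. Loci near 0 in PU numbered 52 at 5 CPM and 135 at 0 counts, and those near 0 in GF 29 and 90. Leaving out each library, also chosen after seeing the data, gave 342 to 526 and 249 to 441.

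Correlations between groups of the shift from replicate 1 to 2 ran from 0.0519 to 0.599 over loci, with 0.302 between GF-NEI and PU-NEI. The sources used here do not say which replicate number belongs to which year. The numbers were therefore not taken to pair the libraries in the main fit. With the replicate block 5932 loci were called, 51.3% of them higher in GF, and each of the 95 called loci examined one by one kept its call. Of 37 uncalled loci examined the same way, 15 were called with the block, among them the phenylalanine ammonia-lyase-like gene (adjusted p = 0.0412) and the pectinesterase 2 precursor (adjusted p = 0.0492). These 95 are the called list members and the loci with the largest folds or CPM. DESeq2 kept 94 of them, the edgeR exact test 95, upper-quartile factors 83 and library totals 84. Without PU-NEI replicate 2, 29 kept the call. No called locus changed direction. Among the 37 uncalled loci examined 4 did. With library totals the log2 fold change was -0.06 for the NAC domain gene Cs5g10870 (0.25), -0.05 for the B-class MADS-box gene (0.23) and -0.07 for Cs8g17390 (0.17). When each library was left out it ran from -0.10 to 0.67, from -0.47 to 0.67 and from -0.08 to 0.44, and for growth-regulating factor 2-like (-0.18) from -1.24 to 0.41. With 2 libraries per group, a p that misses the threshold does not show that the cultivars were alike.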
